A study of Mus musculus with 7 samples.

Results

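The nuclear genes of oxidative phosphorylation were examined in RNA-seq libraries of mouse prefrontal cortex. They were taken as the protein-coding genes whose symbols start with Nduf, Uqcr, Atp5 or Cox4 to Cox8, without the pseudogene ending -ps. The rule found 89 of the 43626 gene identifiers in the table: 36 complex I subunits, 8 complex I assembly factors (Ndufaf), 8 genes of complex III, 20 of complex IV and 17 of complex V. Ndufa4 and Ndufa4l2 carry complex I names but are described with complex IV, where the Ndufa4 protein is now placed. The other genes were placed by symbol alone, so Atp5s, which RefSeq names Dmac2l, is counted with complex V. The compared groups were 4 libraries from hDISC1AA/+ mice, whose titles end in het and whose label gives 1 altered DISC1 allele beside a normal one, and 3 libraries from wild-type (WT) mice. All animals were male C57BL/6J mice aged 8 weeks, and no treatment is given. The sources used here do not say how the altered allele was made. The DISC1 protein acts as a scaffold in neurons.

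Oxidative phosphorylation takes place in the inner mitochondrial membrane. Complex I takes electrons from NADH and passes them to ubiquinone, complex III passes them on to cytochrome c, and complex IV hands them to oxygen. The protons pumped on the way drive complex V, the ATP synthase. Most subunits are encoded in the nucleus, while a small set of core subunits is encoded in mitochondrial DNA. Cortical neurons depend on this pathway for the ATP that restores ion gradients after firing. NRF1, GABPA (also called NRF2) and YY1 are transcription factors known for binding the promoters of many of these nuclear genes.

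RefSeq promoters (GRCm38.p6, 250 bases before to 50 after each start) were matched for 73 of the 89 genes, 2 of them by another symbol for the same gene. The core of the NRF1 site, TGCGCA, which reads the same on both strands, was found in 17 of these 73 windows (23.3%) and in 11% of the windows of 17492 coding genes. The GABPA motif CCGGAAG was found on either strand in 16 (21.9%) and in 12.9% of coding genes. The YY1 core AAGATGG was found on either strand in 12 (16.4%) and in 7.18% of coding genes. At least 1 of the 3 motifs was present in 36 windows (49.3%), and in 26.9% of coding genes. A GABPA match that runs into AAGATGG shares its last 3 letters with the YY1 core, so 1 stretch can count for both. These are letter matches in a fixed window and do not show binding.

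Shown next are 150 bases before the outermost annotated start of 3 genes whose levels are described later, because Ndufb4 and Ndufb10 gave the clearest separation or smallest p between genotypes in complex I and Ndufaf4 the lowest single-library value, relative to the other libraries, of the genes in complex I and its assembly that were tested. Each is printed in the direction of transcription, and capitals mark the NRF1 core; the match of Ndufb10 lies nearer its RefSeq start, outside the stretch shown. Ndufb4 lies on chr16:37654454-37654603 (minus strand), Ndufaf4 on chr4:24897933-24898082 (plus strand) and Ndufb10 on chr17:24724479-24724628 (minus strand).
Ndufb4: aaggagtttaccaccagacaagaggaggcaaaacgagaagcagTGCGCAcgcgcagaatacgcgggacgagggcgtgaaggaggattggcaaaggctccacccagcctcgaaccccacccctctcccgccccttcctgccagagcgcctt
Ndufaf4: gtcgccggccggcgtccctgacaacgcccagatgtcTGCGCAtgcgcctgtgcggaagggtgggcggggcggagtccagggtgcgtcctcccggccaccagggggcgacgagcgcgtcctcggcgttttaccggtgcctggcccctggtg
Ndufb10: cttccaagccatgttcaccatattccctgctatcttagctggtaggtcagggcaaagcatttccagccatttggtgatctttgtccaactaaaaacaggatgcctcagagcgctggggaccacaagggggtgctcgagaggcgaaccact

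The deposited values, called normalized counts here, are reads scaled by a size factor of their library. Dividing them back gave 33512557 to 36005116 reads assigned to genes in the 4 hDISC1AA/+ libraries and in WT replicates 2 and 3, and 63845254 in WT replicate 1. The hDISC1AA/+ columns belong to replicates 1, 3 and 4 and to 1 column whose number matches no sample title, called the unnumbered library. Values per library are given in the order replicate 1, the unnumbered library, replicates 3 and 4 for hDISC1AA/+, and replicates 1, 2 and 3 for WT. The labels do not say that each library came from a separate mouse, so the spread behind each p-value is that of the samples as deposited and could be partly technical. Markers of cortical neurons were high in every library: 8 genes of excitatory neurons summed to normalized counts of 219481 to 294233 in hDISC1AA/+ and 242305 to 281977 in WT libraries. Both replicates numbered 1 stood apart in other lists. In hDISC1AA/+ replicate 1 the sums were the lowest of the 7 libraries for 4 general neuron markers (187702, against 223508 to 263246 in the other 6), 6 inhibitory neuron markers (22092, against 28436 to 37934) and 6 astrocyte markers (37796, against 46961 to 74237). Within these lists, Rbfox3 (13613) and Pvalb (849) were instead highest in hDISC1AA/+ replicate 1. Sst, Slc32a1, Gfap and Aldh1l1 were not lowest in that library either. The sum of the 8 excitatory neuron markers was also highest in that library (294233). WT replicate 1 had the highest sums of astrocyte (74237) and microglia (12705) markers. Of these lists, Slc4a4 was highest in WT replicate 3 and P2ry12 in hDISC1AA/+ replicate 3 instead. The 7 oligodendrocyte markers summed to 129251 in WT replicate 1, against 36244 to 41876 in hDISC1AA/+ libraries and 38728 to 46868 in the other WT libraries, and the 6 endothelial and mural markers to 3185, against 7850 to 10056 and 8443 to 10525. The 3 olfactory bulb markers summed to 154 in hDISC1AA/+ replicate 1 and 271 in WT replicate 1, against 851 to 2376 in the other libraries. The 4 striatum markers summed to 3794 in WT replicate 1, against 2109 to 3273 in the others, though 1 of them, Adora2a, was lowest there. The part of these regional differences in the levels described below was not tested. In bulk tissue, fewer cells of a type and less RNA per cell cannot be told apart.

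Of the 89 genes, 86 reached a normalized count of 10 in at least 3 libraries and were tested. The 3 that did not were complex IV isoforms: Cox8c was at 0 in all 7 libraries, Cox8b lay between 1.06 and 5.78, and Cox7b2 between 0 and 15.4. Cox8b and Cox8c are isoforms of subunit 8 whose ubiquitous form is Cox8a, and Cox7b2 is a relative of Cox7b. The tested genes came from short transcripts, with a median length of 760.5 bases against 2957 for all 14973 coding genes tested. Their median level was 2557 normalized counts per kilobase of transcript, against 278 for all coding genes tested. Together they took 0.841%, 0.743%, 0.688% and 0.705% of reads in the hDISC1AA/+ libraries and 0.887%, 0.658% and 0.682% in the WT libraries. The share was highest in WT replicate 1, second in hDISC1AA/+ replicate 1, and lay between 0.658% and 0.743% in the other 5 libraries of both genotypes.

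Levels per kilobase differed between the complexes over all libraries. The median was 4279 for complex V, 3793 for complex III, 3726 for complex IV and 2112 for complex I subunits, while the assembly factors had 516. Complex V made up 39.4% of the summed normalized counts of these genes, complex I 27.4%, complex IV 21.4%, complex III 9.83% and the assembly factors 2.04%. The gene with the highest level was Atp5b, the catalytic beta subunit of the ATP synthase, at 18084 per kilobase with a range over libraries of 15980 to 22086. It was followed by Cox8a at 17411 (14034 to 22354) and Cox6a1 at 16656 (12696 to 24361). The ranges of these 3 genes overlapped, so their order is not separated by the spread between libraries. The next was Atp5a1, the alpha subunit of the same ring, at 11243 (10259 to 13462).

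**Figure D1:**
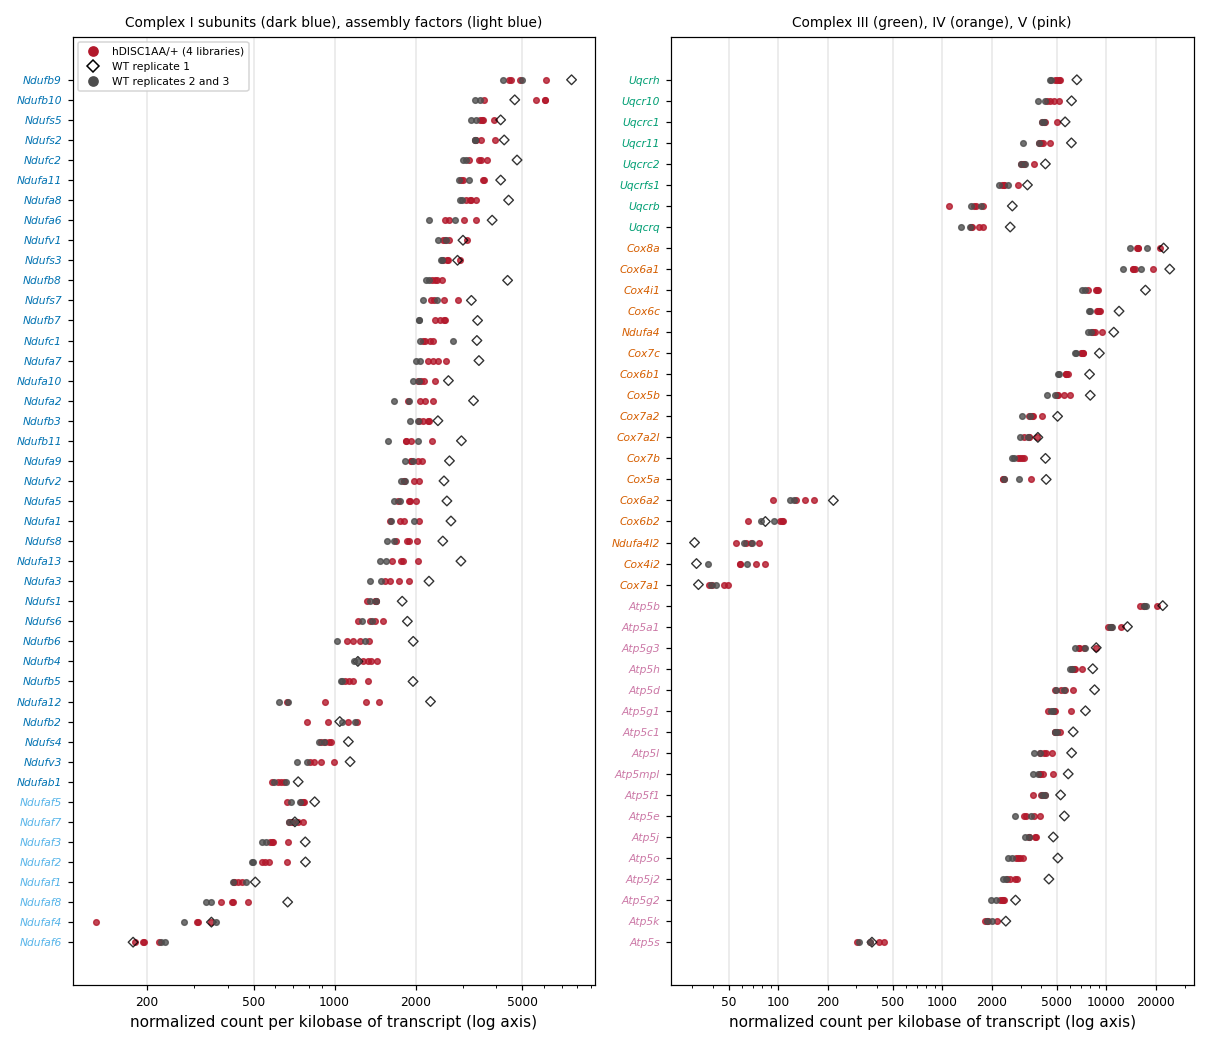
Level of each of the 86 tested genes in every library, as normalized count per kilobase of transcript on a log axis, grouped by complex and sorted by mean. Red points are the 4 hDISC1AA/+ libraries, open diamonds WT replicate 1 and grey points WT replicates 2 and 3; the diamond is the highest point for 73 of 86 genes, and the lowest levels belong to 5 isoforms of complex IV (Cox6a2, Cox6b2, Ndufa4l2, Cox4i2 and Cox7a1), though the range of Cox6a2 (93.1 to 217) overlaps that of Ndufaf6 (178 to 235).

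No gene of oxidative phosphorylation differed between hDISC1AA/+ and WT at an adjusted p under 0.05. With limma and Benjamini-Hochberg adjustment over all 17670 genes tested, 0 genes passed (0%), and the smallest adjusted p was 0.974. At an unadjusted p under 0.05 there were 431 genes (2.44%), and 1 of the 86 was among them, Ndufb10. edgeR and DESeq2 on the recovered reads also called 0 of all genes, with 459 and 604 at an unadjusted p under 0.05. By direction alone, 66 of the 86 were lower in hDISC1AA/+ (76.7%), against 52.2% of all genes tested. The median log2 fold change of the 86 was -0.06, and that of all genes -0.01. The 95% confidence interval lay within 2-fold in either direction for 82 of the 86 genes and within 1.5-fold for 67. No p is given for the direction of the whole list, since its genes were chosen with results of these data known.

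That direction rested on WT replicate 1. It held the highest value of the 7 for 73 of the 86 genes, against 28.2% of all genes tested, and its median fold over the median of the other 6 libraries was 1.38. Its value exceeded that median by more than 1.5-fold for 26 genes and by more than 2-fold for Ndufa12 and Cox4i1. WT replicate 2 held the lowest value for 37 genes, against 12.4% of all genes tested. WT replicate 3 did so for 23, against 8.41%, so the WT libraries lay at both ends. Without WT replicate 1, 76 of the 86 were higher in hDISC1AA/+ and 10 lower, with a median log2 fold change of 0.12 against -0.01 for all genes. The sign turned for 56 genes. In that comparison 4 of the 86 had an unadjusted p under 0.05 (Ndufb7, Ndufb10, Cox4i1 and Ndufa13), where 1.57% of all genes did, and none passed after adjustment, the smallest adjusted p being 0.999. Leaving out another WT library moved the set the other way. Without WT replicate 2, 77 were lower, with a median of -0.15, and without WT replicate 3, 75 were, with a median of -0.14. Of all genes, 53.3% and 52.8% were lower there. The direction thus depended on which WT library was left out. With array weights, in which WT replicate 1 and hDISC1AA/+ replicate 1 counted least (weights of 0.244 and 0.279, against 0.942 to 5.23 for the others), 63 were higher and 23 lower. Of all genes, 51.2% were lower with these weights. The depth and the oligodendrocyte markers of WT replicate 1, given before, moved with these values, and their part in them was not tested.

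Separation of the groups changed in the same way. With all 7 libraries, 1 of the 86 genes, Ndufb4, was higher in every hDISC1AA/+ library than in every WT library, where 2.2% of all genes were, and 0 were lower throughout, where 2.84% were. Without WT replicate 1, 34 were higher in every hDISC1AA/+ library (6.35% of all genes) and 1, Ndufaf6, was lower throughout (5.68% of all genes). Of those 34, 15 were complex I subunits, 3 assembly factors, 4 of complex III, 7 of complex IV and 5 of complex V. Without WT replicate 1, hDISC1AA/+ replicate 1 held the highest of the 6 values for 56 genes, against 28.1% of all genes tested. Without both of these libraries 70 of the 86 were higher in hDISC1AA/+, against 8860 of all 17670 genes. The median log2 fold change was 0.08, against 0.0007 for all genes.

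**Figure D2:**
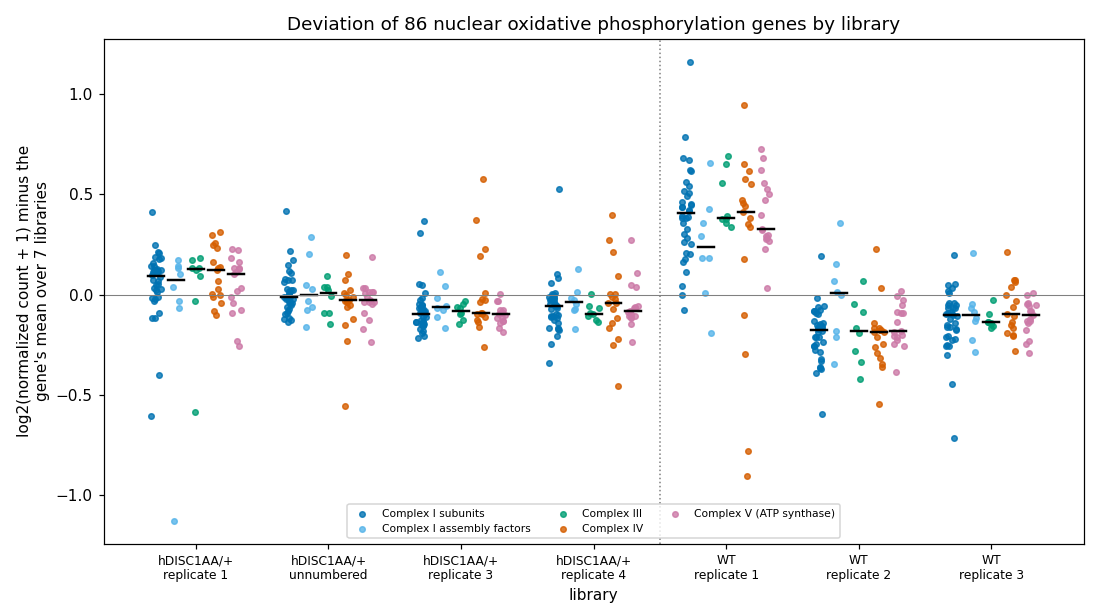
Deviation of each of the 86 genes from its own mean over 7 libraries (log2 of normalized count + 1), for the 4 hDISC1AA/+ libraries on the left and the 3 WT libraries on the right, coloured by complex; black bars are medians. The medians of all 5 groups sit above 0 in WT replicate 1, where Ndufb4, Ndufaf6 and 4 complex IV isoforms lie below it, and most genes lie below 0 in WT replicates 2 and 3.

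**Figure D3:**
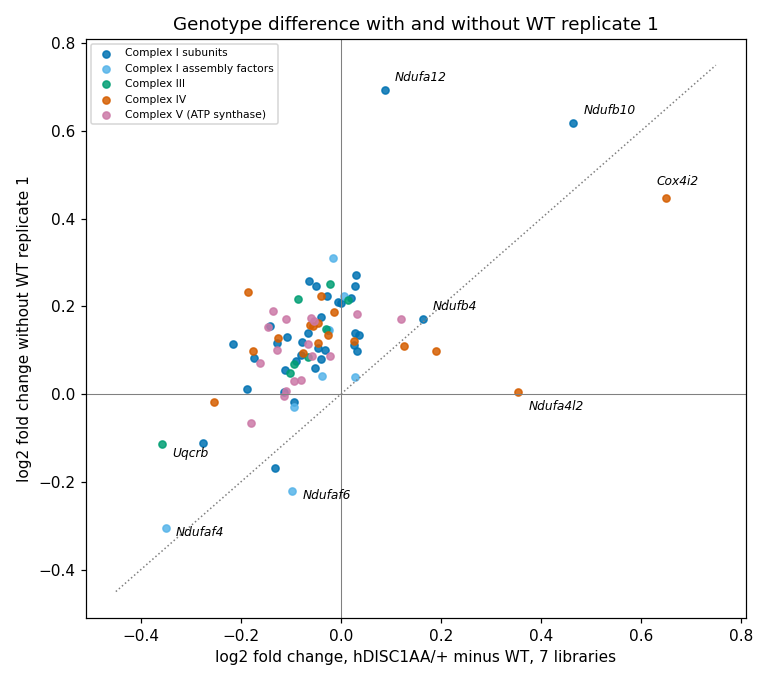
Log2 fold change of each gene, hDISC1AA/+ minus WT, with 7 libraries on the horizontal axis and without WT replicate 1 on the vertical axis; the dotted line marks equal values. Most genes lie above the line and cross from below 0 to above 0, with a median of -0.06 on the horizontal and 0.12 on the vertical axis.

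Complex I holds 36 of the nuclear subunits. Of these, 26 were lower and 10 higher in hDISC1AA/+, with a median log2 fold change of -0.05, a range of -0.28 to 0.46 and a smallest adjusted p of 0.974. Without WT replicate 1, 33 were higher and 3 lower, with a median of 0.13. The core subunits that carry the flavin and the iron-sulphur clusters are among the members with conserved roles from bacteria to mammals. Ndufv1, which holds the NADH binding site, had normalized counts of 5150, 4417, 4215 and 4260 in hDISC1AA/+ libraries, against 4989, 4018 and 4299 in WT libraries. Ndufs1, the large iron-sulphur subunit of the electron input arm, had 3807, 3522, 3773 and 3785 in hDISC1AA/+ and 4748, 3805 and 3609 in WT libraries. Ndufs7, which carries the last iron-sulphur cluster before ubiquinone, had 2173, 1935, 1736 and 1771 in hDISC1AA/+ and 2447, 1613 and 1822 in WT libraries. All 3 core genes overlapped between the groups, with log2 fold changes of 0.03 ± 0.11, -0.11 ± 0.11 and -0.03 ± 0.15 (SE, limma). Ndufs1 overlaps Eef1b2 on the opposite strand, and the sources used here do not say whether counting used strand.

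Accessory subunits of the membrane arm gave the smallest p-values in complex I. Ndufb10 had normalized counts of 4429, 4451, 4123 and 2622 in hDISC1AA/+ libraries, against 3425, 2534 and 2444 in WT libraries. Of the hDISC1AA/+ libraries 3 lay above every WT library, and replicate 4 lay among the WT values. The log2 fold change was 0.46 ± 0.20 (SE), with an unadjusted p of 0.0498 and an adjusted p of 0.974 by limma. An exact two-sided permutation test over the 35 divisions of the libraries gave p = 0.114, and the smallest p this test can give is 0.0286. Leaving out WT replicate 1 gave a log2 fold change of 0.62, with an unadjusted p of 0.0226.

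Ndufb4, another accessory subunit of the membrane arm, had normalized counts of 1398, 1240, 1298 and 1324 in hDISC1AA/+ libraries, against 1185, 1183 and 1151 in WT libraries. All 4 hDISC1AA/+ values lay above all 3 WT values. The difference was small, a log2 fold change of 0.16 ± 0.09 (SE), and its adjusted p was 0.974 by limma. The exact two-sided permutation test gave p = 0.0571. Ndufb4 has 2 annotated pseudogene copies of at least 95% identity, so reads may have been split between them.

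Ndufc1, a small accessory subunit, had 713, 731, 682 and 671 in hDISC1AA/+ libraries, against 1066, 655 and 870 in WT libraries. WT replicates 1 and 3 lay above every hDISC1AA/+ library and WT replicate 2 below them, and the log2 fold change was -0.28 ± 0.16 (SE). Ndufb9, the complex I subunit with the highest level per kilobase, had 4305, 3459, 3182 and 3149 in hDISC1AA/+ and 5360, 2975 and 3497 in WT libraries. The groups overlapped, with a log2 fold change of -0.13 ± 0.20 (SE) that became 0.12 without WT replicate 1.

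Ndufa12, an accessory subunit, varied most of the 86 genes and was chosen for description after its values were seen. It had normalized counts of 740, 1026, 1453 and 1626 in hDISC1AA/+ libraries, against 2524, 745 and 687 in WT libraries. WT replicate 1 was at 2.85 times the median of the other 6, and hDISC1AA/+ replicate 1 lay beside WT replicates 2 and 3. The log2 fold change was 0.09 ± 0.48 (SE) with all libraries, at an unadjusted p of 0.859 by limma. It was 0.69 without WT replicate 1, where the unadjusted p was 0.0616. Without both replicates numbered 1 it was 0.91, at an unadjusted p of 0.00104 by limma. In that comparison 3.32% of all genes had an unadjusted p under 0.05, and 0 passed after adjustment. The libraries left out held the highest WT and the lowest hDISC1AA/+ value of Ndufa12. Leaving them out therefore widens the difference by itself, and this p is no test of it. One pseudogene copy of Ndufa12 passes the 95% identity limit.

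Assembly factors help build complex I and are not part of the finished enzyme. Of 8, 6 were lower in hDISC1AA/+ and 2 higher, with a median log2 fold change of -0.03, while without WT replicate 1, 3 were lower and 5 higher, with a median of 0.04. Ndufaf4, whose promoter holds an NRF1 match, had normalized counts of 472, 1259, 1117 and 1128 in hDISC1AA/+ libraries, against 1264, 1320 and 999 in WT libraries. One library set it apart: hDISC1AA/+ replicate 1 was below every other library, while the remaining 6 overlapped between the genotypes. The log2 fold change was -0.35 ± 0.32 (SE), and 0.02 without both replicates numbered 1. In hDISC1AA/+ replicate 1, the deviation of genes tested from their mean over the 7 libraries followed GC content and exonic length most closely. The R2 was 0.355, against 0.0232 to 0.117 in the other libraries, and its part in the value of Ndufaf4 was not tested.

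Ndufaf6 had 241, 211, 210 and 195 in hDISC1AA/+ libraries, against 193, 244 and 254 in WT libraries. WT replicate 1 was the lowest of the 7 here, contrary to most other genes of the set, and without it every hDISC1AA/+ value lay below both WT values, at a log2 fold change of -0.22 and an unadjusted p of 0.175. Ndufaf1 had 633, 659, 614 and 614 in hDISC1AA/+ and 736, 678 and 609 in WT libraries. Ndufaf5, the assembly factor with the highest level per kilobase, had 892, 896, 772 and 877 in hDISC1AA/+ and 983, 868 and 801 in WT libraries. Both overlapped between the groups, with log2 fold changes of -0.09 ± 0.11 and -0.04 ± 0.11 (SE).

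In complex III, 7 of 8 genes were lower in hDISC1AA/+ and 1 higher, with a median log2 fold change of -0.08 and a range of -0.36 to 0.01. WT replicate 1 was the highest library for all 8, and without it 7 were higher and 1 lower, with a median of 0.12. Uqcrc1 and Uqcrc2 encode the large core proteins on the matrix side. Uqcrc1 had 8272, 6902, 7008 and 6724 in hDISC1AA/+ libraries, against 9273, 6916 and 6674 in WT libraries. Uqcrc2 had 6909, 5692, 5891 and 6005 in hDISC1AA/+ libraries, against 8067, 6100 and 5714 in WT libraries. In both genes replicate 1 of each genotype lay above all other libraries, which overlapped. Uqcrfs1, the Rieske iron-sulphur protein that hands electrons towards cytochrome c, followed the same order, with 3945, 3256, 3141 and 3229 in hDISC1AA/+ and 4507, 3044 and 3410 in WT libraries. The log2 fold changes were -0.07 ± 0.13 for Uqcrc1, -0.10 ± 0.13 for Uqcrc2 and -0.09 ± 0.15 for Uqcrfs1 (SE).

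Uqcrb, a small subunit near the ubiquinone site, had 589, 945, 865 and 830 in hDISC1AA/+ libraries, against 1431, 926 and 799 in WT libraries. It was lowest in hDISC1AA/+ replicate 1 and highest in WT replicate 1, and the log2 fold change of -0.36 ± 0.22 (SE) became 0.03 without these libraries. Uqcrb has 3 pseudogene copies and overlaps Gm10767 on the opposite strand. Uqcrh, the hinge protein at the cytochrome c site, had the highest level per kilobase of complex III, with 2731, 2859, 2670 and 2798 in hDISC1AA/+ libraries and 3619, 2482 and 2504 in WT libraries. Its hDISC1AA/+ values lay above WT replicates 2 and 3 and below WT replicate 1, at a log2 fold change of -0.03 ± 0.14 (SE) with all libraries and 0.15 without WT replicate 1.

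**Figure D4:**
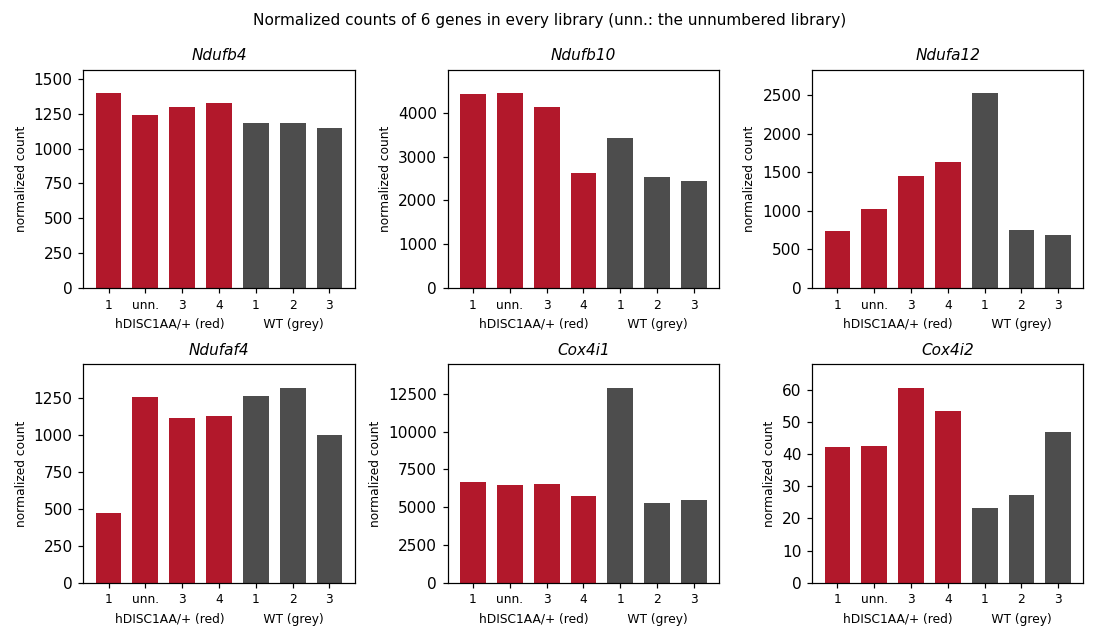
Normalized counts of Ndufb4, Ndufb10, Ndufa12, Ndufaf4, Cox4i1 and Cox4i2 in the 4 hDISC1AA/+ libraries (red, left) and the 3 WT libraries (grey, right), with bars starting at 0 and 1 bar per library. Ndufb4 is the gene of the 86 whose groups do not overlap, Ndufaf4 is low in hDISC1AA/+ replicate 1, and Ndufa12 and Cox4i1 are highest in WT replicate 1.

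Complex IV is cytochrome c oxidase, and several of its nuclear subunits exist as isoforms used in different tissues. Of 17 tested genes, 12 were lower in hDISC1AA/+ and 5 higher, with a median log2 fold change of -0.05. Without WT replicate 1, 1 was lower and 16 higher, with a median of 0.13. Cox4i1, the widely expressed isoform of subunit 4, had 6635, 6458, 6537 and 5752 in hDISC1AA/+ libraries, against 12903, 5268 and 5509 in WT libraries. All 4 hDISC1AA/+ values lay between WT replicate 1, at 2.11 times the median of the other 6, and the other 2 WT libraries. The log2 fold change was -0.19 ± 0.29 (SE), and 0.23 without WT replicate 1 at an unadjusted p of 0.0427. Cox4i1 overlaps Emc8 on the opposite strand and the coding gene Gm20388 on the same strand.

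Cox5a, a subunit that joins the complex early in assembly together with subunit 4, had 2247, 1542, 1507 and 1518 in hDISC1AA/+ libraries, against 2774, 1526 and 1891 in WT libraries. Replicate 1 of each genotype gave the highest values, at a log2 fold change of -0.25 ± 0.22 (SE) with all libraries and -0.02 without WT replicate 1. Cox6c had 4392, 4606, 4548 and 4483 in hDISC1AA/+ and 6014, 3997 and 3923 in WT libraries. Its hDISC1AA/+ values were tightly grouped between WT replicate 1 and the other 2 WT libraries, and the log2 fold change was -0.01 ± 0.15 (SE). Cox8a, with the highest level per kilobase in complex IV, had 11620.2, 8501, 8608 and 8575 in hDISC1AA/+ and 12295, 7719 and 9715 in WT libraries, which overlapped at -0.07 ± 0.17 (SE).

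The widely expressed isoforms made up nearly all of their families in both genotypes, where shares are of the summed level per kilobase of a family. Cox4i2, the isoform known from lung and from hypoxia-responsive cells, made up 0.649%, 0.671%, 0.942% and 0.944% of subunit 4 in hDISC1AA/+ libraries and 0.183%, 0.528% and 0.864% in WT libraries. Cox6a2, the heart and skeletal muscle isoform of subunit 6A, made up 0.617% to 0.999% of that family in hDISC1AA/+ and 0.762% to 0.927% in WT libraries. Cox6b2, known as the testis isoform, made up 1.13% to 1.82% in hDISC1AA/+ and 1.05% to 1.82% in WT libraries. Cox7a1, the muscle isoform of subunit 7A, held 0.479% to 0.715% in hDISC1AA/+ and 0.367% to 0.684% in WT libraries, while Cox7a2 and the related supercomplex factor Cox7a2l shared the rest. Cox8a made up at least 99.9% of its family in every library. The 4 skeletal and heart muscle markers summed to normalized counts of 689 to 816 in hDISC1AA/+ and 558 to 665 in WT libraries. These markers were not uniform. Tnnt2 and Myh6 were higher in hDISC1AA/+ (log2 fold changes of 0.61 and 0.41) and both lowest in WT replicate 1. Acta1 was lower (-0.13), and Ckm missed the filter.

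Cox4i2 itself had normalized counts of 42.3, 42.6, 60.7 and 53.5 in hDISC1AA/+ libraries, against 23.1, 27.3 and 46.9 in WT libraries. The groups overlapped through WT replicate 3, and the log2 fold change of 0.65 ± 0.30 (SE) had an unadjusted p of 0.0598. The value without WT replicate 1 was 0.45. Ndufa4l2, a relative of Ndufa4 known as a hypoxia-induced gene and a marker of pericytes, had 51.8, 59.2, 71.5 and 63.8 in hDISC1AA/+ libraries, against 28.9, 64.4 and 57.8 in WT libraries. WT replicate 1 lay below the other 6, which overlapped, and the log2 fold change of 0.35 ± 0.31 (SE) became 0.004 without it. The 6 endothelial and mural markers, none of them at 0, were all higher in hDISC1AA/+ by their fold change, but without WT replicate 1 only 3 of 6 were (Cldn5, Pecam1 and Emcn), and their sum was also lowest in WT replicate 1, at 3185. Their part in the values of Cox4i2 and Ndufa4l2 was not tested. Ndufa4l2 also overlaps Shmt2 on the opposite strand.

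In complex V, 15 of 17 genes were lower in hDISC1AA/+ and 2 higher, with a median log2 fold change of -0.09 and a range of -0.18 to 0.12. The value of 0.12 was that of Atp5s (Dmac2l), counted here by its symbol alone. Without WT replicate 1, 15 were higher and 2 lower, with a median of 0.10. Atp5b had 39050.1, 30617, 32347 and 32560 in hDISC1AA/+ libraries, against 42317, 32316 and 33332 in WT libraries. Atp5a1 had 30304, 25349, 26251 and 26432 in hDISC1AA/+ libraries, against 33263, 26694 and 26173 in WT libraries. For both genes of the catalytic head, replicate 1 of each genotype was highest and the others overlapped, with log2 fold changes of -0.09 ± 0.13 and -0.08 ± 0.11 (SE).

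Atp5g1, Atp5g2 and Atp5g3 encode the same mature subunit c, which forms the turning ring of the membrane part. Atp5g1 had 3609, 2617, 2854 and 2884 in hDISC1AA/+ libraries and 4448, 2807 and 2732 in WT libraries. Atp5g2 had 1724, 1694, 1646 and 1745 in hDISC1AA/+ libraries and 2045, 1456 and 1546 in WT libraries. Atp5g3 had 6174, 5194, 4874 and 4895 in hDISC1AA/+ libraries and 6201, 4603 and 5323 in WT libraries. All overlapped between the genotypes, at log2 fold changes of -0.13 ± 0.19, 0.03 ± 0.13 and -0.02 ± 0.13 (SE). Per kilobase, Atp5g3 was the highest of them at 7456, followed by Atp5g1 at 5261 and Atp5g2 at 2317, where the range over libraries of Atp5g1 (4391 to 7463) overlapped that of Atp5g3 (6447 to 8684) and lay above that of Atp5g2 (1991 to 2797).

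The smallest unadjusted p-values of complex V belonged to Atp5f1, Atp5c1 and Atp5k. Atp5f1, subunit b of the peripheral stalk, had 5733, 6787, 6577 and 6448 in hDISC1AA/+ libraries, against 8448, 6812 and 6524 in WT libraries. The central stalk subunit gamma, Atp5c1, had 6048, 5825, 5665 and 5641 in hDISC1AA/+ libraries and 7328, 5878 and 5659 in WT libraries. Atp5k, subunit e, had 704, 697, 679 and 800 in hDISC1AA/+ libraries and 906, 700 and 742 in WT libraries. WT replicate 1 was the highest library for each, and the other 6 overlapped. The log2 fold changes were -0.18 ± 0.11, -0.11 ± 0.11 and -0.11 ± 0.12 (SE), and each of these genes has 1 or 2 pseudogene copies.

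For the mitochondrially encoded subunits of the same complexes, both replicates numbered 1 stood apart from the other libraries. The 12 mitochondrial mRNAs tested were lowest in hDISC1AA/+ replicate 1 and highest in WT replicate 1 for 12 of 12 genes. Their mean log2 level in hDISC1AA/+ replicate 1 differed by -3.39 from the mean of the other 6 libraries, and in WT replicate 1 it lay 1.76 above. The 86 nuclear genes lay 0.06 above the mean of the other 6 libraries in hDISC1AA/+ replicate 1 and 0.42 above it in WT replicate 1. Mitochondrial mRNAs took 1.78% of reads in hDISC1AA/+ replicate 1, 4.48% to 5.22% in the other hDISC1AA/+ libraries, and 5.93%, 4.46% and 4.46% in the WT libraries. As an example, mt-Nd1, a core subunit of complex I, had 21462, 184637, 217992 and 196264 in hDISC1AA/+ libraries, against 293937, 188388 and 192673 in WT libraries. In WT replicate 1 the nuclear and mitochondrial genes were both high, while in hDISC1AA/+ replicate 1 the mitochondrial genes were low and the nuclear genes were not.

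**Figure D5:**
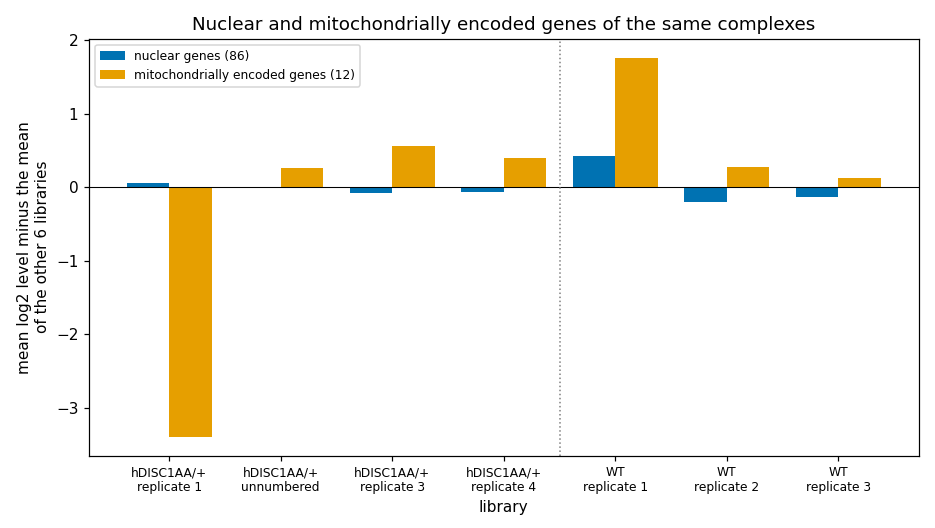
Mean log2 level of the 86 nuclear genes (blue) and of 12 mitochondrially encoded genes (orange) in each library, minus the mean of the other 6 libraries, with hDISC1AA/+ libraries on the left and WT libraries on the right. The mitochondrial genes reach -3.39 in hDISC1AA/+ replicate 1 and 1.76 in WT replicate 1, while the nuclear genes stay between -0.20 and 0.42.

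A list of 48 other genes of the pathway was examined beside them, of which 46 were tested and 0 passed the adjusted threshold. By direction, 34 were lower in hDISC1AA/+ and 12 higher, with a median log2 fold change of -0.08. Of the 34, 12 were the mitochondrially encoded genes that were lowest in hDISC1AA/+ replicate 1. Without WT replicate 1, 25 of the 46 were lower, with a median of -0.01. The 4 subunits of complex II, succinate dehydrogenase, were all lower, between -0.12 and -0.05 on the log2 scale, and all higher without WT replicate 1. Among 11 assembly factors of complex IV tested, 5 were lower and 6 higher, with a median of 0.01. The 6 assembly factors of complex III split evenly, 3 lower and 3 higher. Atpif1, the inhibitor of the ATP synthase, had 272, 421, 354 and 292 in hDISC1AA/+ libraries, against 1391, 302 and 218 in WT libraries, and WT replicate 1 lay above the other 6, which overlapped. Atpif1 and mt-Nd1 were chosen as examples after their values were seen, as was Ppargc1a, described next.

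Among 7 regulators, 4 were lower and 3 higher. Ppargc1a, the coactivator of mitochondrial biogenesis, had 1331, 1943, 2126 and 2217 in hDISC1AA/+ libraries, against 2518, 2510 and 2250 in WT libraries. Every hDISC1AA/+ value lay below every WT value, as for 2.84% of all genes tested. Cycs and Tmem70, of the same list of other pathway genes, were also lower throughout, and none of that list was higher throughout. For Ppargc1a the log2 fold change was -0.37, with an unadjusted p of 0.057 and an adjusted p of 0.974 by limma. Without both replicates numbered 1 the log2 fold change was -0.18. Nrf1 had 697, 737, 745 and 656 in hDISC1AA/+ and 623, 675 and 689 in WT libraries, which overlapped. Gabpa had 628, 1164, 1113 and 1050 in hDISC1AA/+ and 987, 1259 and 1146 in WT libraries, and was lowest in hDISC1AA/+ replicate 1.

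Features of the genes were set beside their values as a description over the 86 genes, which share the same 7 libraries. The deviation in WT replicate 1 had a Spearman rho of -0.26 with transcript length and 0.10 with GC content. The 43 shorter genes, of 315 to 758 bases, lay a median of 0.50 log2 units above the other libraries in WT replicate 1, and the 43 longer genes 0.39. The deviation in hDISC1AA/+ replicate 1 had a rho of 0.31 with GC content and about 0 with length. Shared sequence limits single values: 22 of the 89 genes have an annotated pseudogene copy of at least 95% identity over at least 100 bases, and 24 overlap a coding gene on the opposite strand. Some, among them Cox4i1, Ndufb9 and Ndufa13, overlap a coding gene on the same strand.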

How the data were processed

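Prefrontal cortex RNA was sequenced after Trizol extraction and a NEBNext Ultra library, per the labels' protocols. Tools listed without role or order in the submitters' processing notes are HTSeq 0.6.1, HISAT2 2.1.0, Trimmomatic 0.39 and DESeq2 1.26.0, with the build mm10. The deposited table by the authors holds a signal per gene that is not a raw count: all values were whole multiples of 1 step per library within 0.01 reads (100% of values), which gave back the reads. No column was left out. Of 43626 identifiers, 42545 matched GENCODE M21 (GRCm38, the assembly named mm10), and 3 genes with broken lines were left out (0.012% to 0.0169% of a library's values).

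The test was a two-sided limma 3.58.1 fit (trend, robust; R 4.3.3) of log2(normalized count + 1) over the 17670 genes that reached 10 in 3 or more libraries, adjusted over all of them by Benjamini-Hochberg and read at 0.05. Fold changes use this scale and understate the change of low genes. edgeR 4.0.16 and DESeq2 1.42.0 on the recovered reads were alternatives, beside other scalings (TMM, median centring), pseudocounts (0.5 and 10), filters (none, and 50), a GC and length correction, array weights, and leaving out libraries. The calculations were tested on simulated counts. Levels per kilobase use 1 principal transcript per gene. Pseudogene copies were found with blastn 2.17.0.

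Genes described in every library were the 3 with the smallest unadjusted p in each complex, the one with the highest level per kilobase, and 13 fixed representatives, besides those said to be chosen after their values were seen. The genes, lists and tests were chosen with earlier results of these data known. Replicate numbers come from record order alone and pair no libraries.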

Additional observations from a re-analysis of the deposited data

Results flagged for a closer look

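Within the 4 hDISC1AA/+ libraries, 10 of 86 genes had 1 library far from the other 3 by Dixon's criterion at 95%, where chance gives about 1 in 20. That share was not counted over all genes tested, so the 10 cannot be read as particular to this set. Among all genes tested, hDISC1AA/+ replicate 1 was the lowest of the 7 libraries for 24.8% and the highest for 18.6%. For 6 of the 10 the library was hDISC1AA/+ replicate 1. It was the highest for Cox5a at 2247 (others 1507 to 1542), Cox6a1 at 10940 (8300 to 8559), Cox8a at 11620 (8501 to 8608), Ndufaf3 at 996.4 (857.4 to 874.4) and Uqcrfs1 at 3945 (3141 to 3256), all in normalized counts. It was the lowest for Ndufaf4 at 471.7 (1117 to 1259). hDISC1AA/+ replicate 4 was the lowest for Ndufb10 at 2622 (4123 to 4451) and for Cox6b2 at 36.01 (57.09 to 59.23). hDISC1AA/+ replicate 3 was the lowest for Ndufaf5 at 772.3 (876.5 to 895.8), and the unnumbered library for Ndufs1 at 3522 (3773 to 3807). Groups of 3 were not examined in this way, so WT replicate 1 is not among these results.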

How the results depend on the processing

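No gene of the 86 passed the adjusted threshold in any of the 18 alternatives, and 0 of all genes did. Of the 30 genes described in every library, 0 changed sign under edgeR, DESeq2, TMM scaling, median centring, either pseudocount or either filter. Cox4i2 fell under the stricter filter, so that 29 were run there. With the GC and length correction 71 of the 86 were lower, and the median of all members was -0.1089, against -0.05682 in the main fit. That correction turned the log2 fold change to -0.03617 for Ndufv1, -0.06633 for Atp5g2 and 0.07892 for Atp5f1. With array weights 23 of the 86 were lower, and the median turned to 0.05584 for all members, 0.06827 for complex I, 0.0555 for assembly factors, 0.05462 for complex III, 0.09923 for complex IV and 0.0222 for complex V. The weights also turned Ndufs1 (0.01352), Ndufs7 (0.009509), Uqcrc1 (0.03555), Cox4i1 (0.1509), Cox6c (0.1814), Atp5g1 (0.0222), Ndufaf4 (0.0637), Ndufaf1 (0.008376), Ndufaf5 (0.04296), Uqcrb (0.03434), Uqcrc2 (0.02024) and Uqcrh (0.1224). Leaving out libraries, 1 at a time or WT replicate 1 with hDISC1AA/+ replicate 1, gave 10 to 77 lower genes. The fewest were lower without WT replicate 1 and the most without WT replicate 2. The medians ranged from -0.1546 to 0.1186 for all members, -0.1546 to 0.1253 for complex I, -0.1064 to 0.04027 for assembly factors, -0.1835 to 0.1164 for complex III, -0.1464 to 0.1275 for complex IV and -0.1898 to 0.1006 for complex V. Among single genes the log2 fold change ranged from -0.04289 to 0.1132 for Ndufv1, -0.1924 to 0.005342 for Ndufs1, -0.1549 to 0.1455 for Ndufs7, -0.3088 to 0.1158 for Ndufb9, -0.496 to 0.02159 for Ndufaf4 and -0.107 to 0.04075 for Ndufaf5. In complex III it was -0.1531 to 0.08414 for Uqcrc1, -0.2144 to 0.06872 for Uqcrfs1, -0.5333 to 0.03071 for Uqcrb, -0.1999 to 0.04887 for Uqcrc2 and -0.1234 to 0.1544 for Uqcrh. In complex IV it was -0.4122 to 0.234 for Cox4i1, -0.1217 to 0.1989 for Cox6c and -0.2421 to 0.09367 for Cox8a. In complex V it was -0.1664 to 0.02951 for Atp5b, -0.1412 to 0.03175 for Atp5a1, -0.2508 to 0.1006 for Atp5g1, -0.06323 to 0.1817 for Atp5g2, -0.1275 to 0.08741 for Atp5g3, -0.1801 to 0.006231 for Atp5c1 and -0.1898 to 0.005854 for Atp5k. The sign held in all 7 leave-outs of 1 library for 12 of the 30. The cause of these turns was not tested. No paired analysis was possible because replicate numbers only follow the order of the records. With 3 and 4 libraries, differences of the size of the medians lie inside the confidence intervals of single genes.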
